A study of Mus musculus with 40 samples.

Results

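Gata1, Klf1, Zfpm1, Gfi1b, Nfe2, Epor, Tfrc, Car1, Car2 and Ermap are genes of the erythroid lineage, chosen by symbol as its regulators and early genes. They are 10 of the 35976 gene symbols counted, and all 10 were present and passed the filter on low counts in every fit. RNA was measured in mouse bone marrow cells that had lost Dnmt3a, a DNA methyltransferase, or Sting, the adaptor of cytosolic DNA sensing encoded by Tmem173, or both. Gene counts were used from 32 of the 40 libraries. Among sorted cells these were 4 Dnmt3a knockout (KO) and 3 wild-type (WT) libraries of megakaryocyte-erythroid progenitors (MEP; the WT ones numbered 1, 3 and 4), 4 Dnmt3a KO and 4 WT libraries that pool common myeloid with granulocyte-macrophage progenitors (CMP/GMP) and 4 Dnmt3a KO and 4 WT libraries of long-term haematopoietic stem cells (LT-HSC). Among c-kit+ cells, a mixed progenitor fraction bearing the stem cell factor receptor, there were 3 double knockout (DKO, Dnmt3a and Sting), 2 Dnmt3a KO, 2 Sting KO and 2 WT libraries. Short-term stem cells were not analysed here. The study text describes the Dnmt3a KO as a floxed allele deleted by Mx1-Cre, whose promoter answers to interferon and is active in other blood and non-blood cells as well. The sources used here do not give ages, the induction scheme, the Sting allele or whether WT animals carry the Cre.

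GATA1 is the central transcription factor of red cell development. It binds DNA with Zfpm1 (friend of GATA1) as a cofactor, switches on Klf1, Epor and Gfi1b, and takes over from factors of stem cells and other lineages. KLF1 then activates adult beta-globin and red cell membrane genes, while erythropoietin signals through its receptor, the product of Epor, to keep erythroid progenitors alive. The transferrin receptor (Tfrc) brings in the iron needed for haem, and carbonic anhydrases and blood group proteins such as Ermap appear as the cells mature.

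Libraries held 3439743 to 47663942 gene reads, the fewest in MEP Dnmt3a KO 2. LT-HSC WT 1, LT-HSC Dnmt3a KO 2 and MEP Dnmt3a KO 2 stood apart, with a Spearman correlation to no other library above 0.769. MEP Dnmt3a KO 3 and 4 correlated at 0.993 with each other, while MEP Dnmt3a KO 1 averaged 0.681 to its own group and was closest to MEP WT 3 (0.929). Dnmt3a itself was at 43.0 to 51.6 CPM in c-kit+ DKO and Dnmt3a KO libraries and at 81.3 to 102 CPM in c-kit+ Sting KO and WT libraries. It went against the label in MEP Dnmt3a KO 2 (43.7 CPM, above 2 of the 3 MEP WT libraries) and in LT-HSC Dnmt3a KO 3 (104 CPM, above 3 of the 4 LT-HSC WT libraries). Tmem173 was at 10.1 to 11.9 CPM in the c-kit+ DKO and Sting KO libraries and at 44.8 to 67.0 CPM in the other c-kit+ libraries. CPM, the share of each library taken by a gene, is given after TMM scaling over the 32 libraries. The labels name no animals, so a p-value reflects no more than the scatter of these libraries, which may be technical.

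The promoters of 7 of the members were found in RefSeq windows of 300 bases. Letters of the GATA motif (GATA preceded by A or T and followed by A or G, on both strands) occurred in the windows of 4 members, Klf1, Epor, Gfi1b and Ermap. Letters of a CACCC-like motif of the kind KLF1 binds (CCNCNCCC, both strands) occurred in those of 5, Gata1, Epor, Gfi1b, Tfrc and Zfpm1. Of all 32851 windows, 29.8% held the GATA letters, 49.5% the KLF letters and 10.2% both. A match is a description of the letters and no binding was measured. The stretches below, 150 bases each (GRCm38.p6, 5′ to 3′ on the strand of the gene), are shown because 4 of the genes carry GATA letters close to their start and the fifth is Gata1 itself. The last base is at position -55 from the RefSeq start in Klf1, at -17 in Ermap and at -1 in the other 3, and capitals mark the motif letters.
Klf1 (chr8:84901778-84901927, plus strand): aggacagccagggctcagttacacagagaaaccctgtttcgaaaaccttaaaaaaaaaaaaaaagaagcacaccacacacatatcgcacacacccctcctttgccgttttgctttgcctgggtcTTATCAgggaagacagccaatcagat
Epor (chr9:21963577-21963726, minus strand): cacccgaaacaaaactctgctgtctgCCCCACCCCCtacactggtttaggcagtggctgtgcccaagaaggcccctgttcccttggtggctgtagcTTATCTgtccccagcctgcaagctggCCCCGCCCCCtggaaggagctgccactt
Gfi1b (chr2:28621983-28622132, minus strand): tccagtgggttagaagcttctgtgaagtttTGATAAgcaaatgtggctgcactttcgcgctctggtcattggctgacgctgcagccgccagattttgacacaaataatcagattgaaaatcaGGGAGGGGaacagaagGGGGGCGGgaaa
Ermap (chr4:119190012-119190161, minus strand): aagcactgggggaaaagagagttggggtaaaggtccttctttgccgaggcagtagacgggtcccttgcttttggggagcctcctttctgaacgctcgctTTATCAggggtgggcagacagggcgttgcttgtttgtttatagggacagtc
Gata1 (chrX:7967911-7968060, minus strand): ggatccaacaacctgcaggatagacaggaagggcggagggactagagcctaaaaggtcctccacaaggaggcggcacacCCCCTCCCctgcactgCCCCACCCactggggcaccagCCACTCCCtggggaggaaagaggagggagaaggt
The GATA letters began 80 bases before the RefSeq start in Klf1, 54 in Epor, 120 in Gfi1b and 67 in Ermap. In Klf1, Epor and Ermap they lie on the opposite strand and read TTATCA or TTATCT. Epor holds both motifs, with the KLF letters as overlapping C-rich runs on either side of the GATA letters, and Gfi1b holds both as well. The Gata1 stretch holds 3 KLF matches and no GATA letters.

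**Figure D1:**
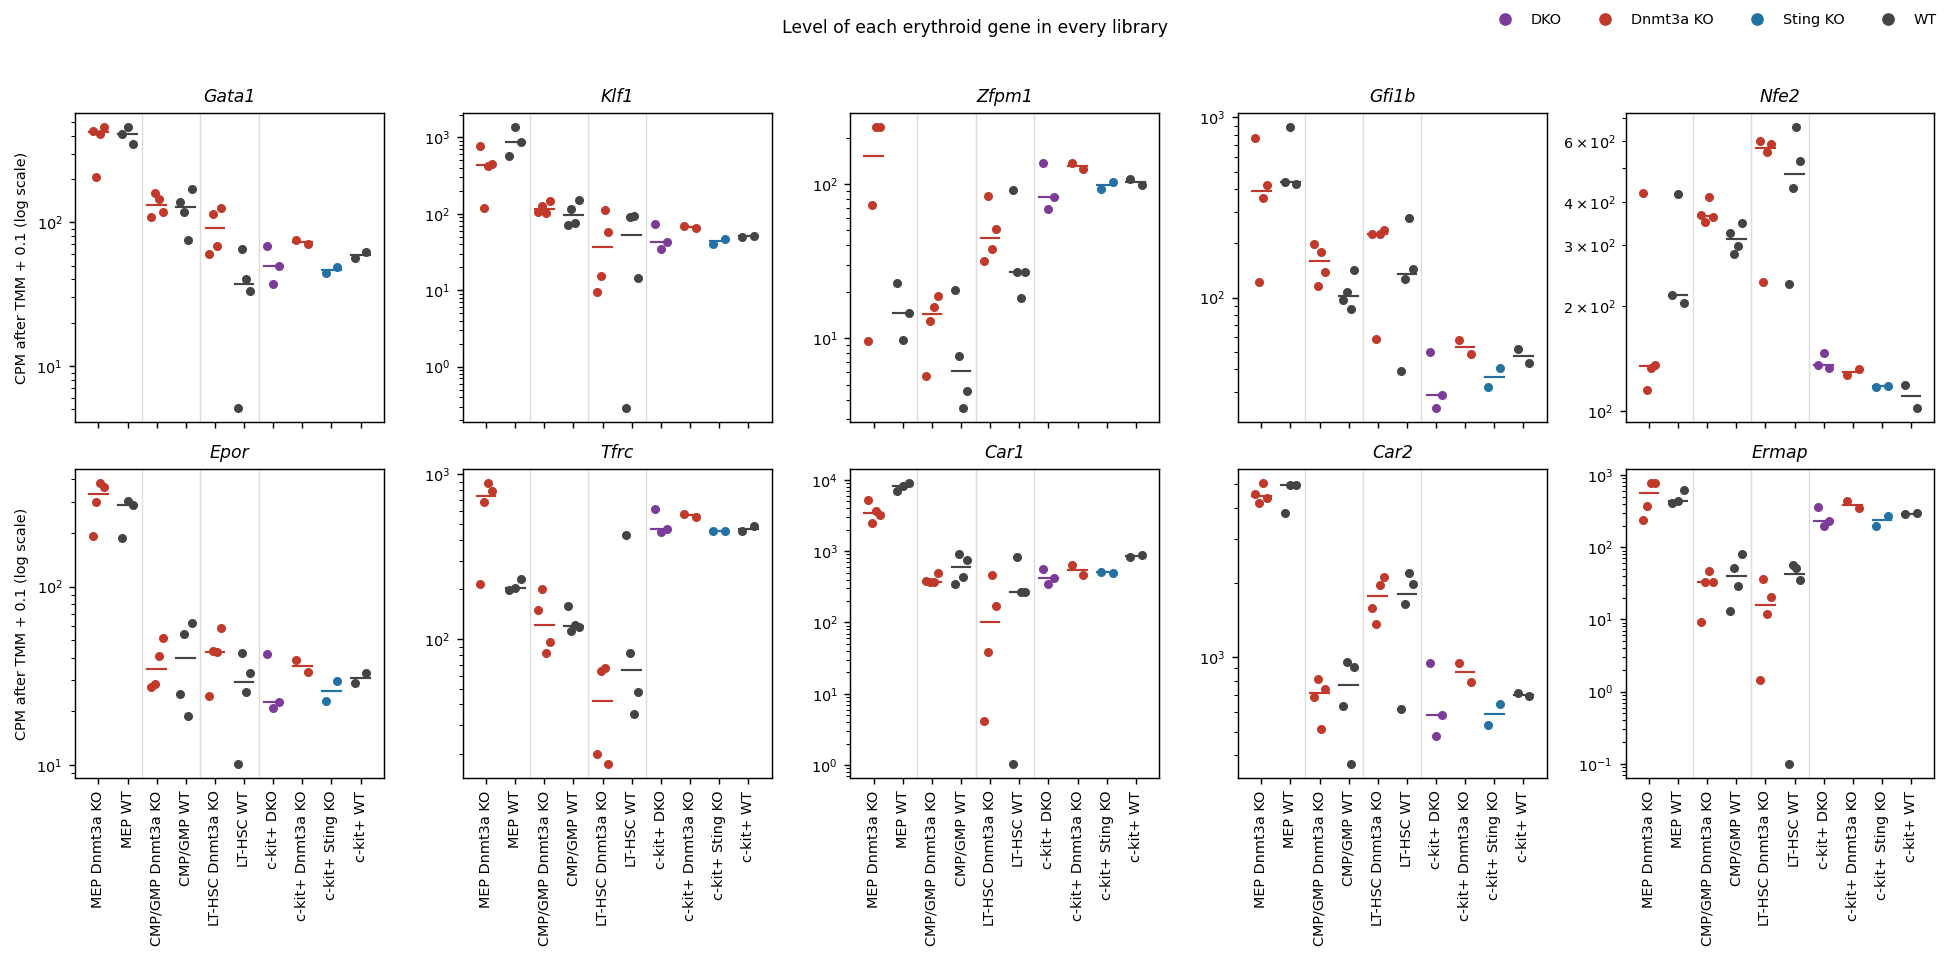
Level of each of the 10 genes in each of the 32 libraries, as CPM after TMM plus 0.1 on a log axis, by population and genotype; points are libraries and lines medians. By median, Epor, Car2, Car1, Gata1 and Ermap stand highest in MEP (Epor 188 to 381 CPM), while Nfe2 is highest in LT-HSC and Zfpm1 in MEP splits between 9.51 and 234 CPM.

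Among the transcription factors, Gata1 (chrX:7959260-7978071, minus strand; GRCm38) had 429, 208, 412 and 457 CPM in MEP Dnmt3a KO, against 413, 458 and 349 CPM in MEP WT. It had 109, 159, 145 and 118 CPM in CMP/GMP Dnmt3a KO, against 137, 117, 75.6 and 169 CPM in CMP/GMP WT, then 60.1, 115, 67.7 and 125 CPM in LT-HSC Dnmt3a KO, against 5.02, 64.9, 40.3 and 33.4 CPM in LT-HSC WT. Every MEP library was thus above every CMP/GMP and LT-HSC library, and in WT the CMP/GMP libraries were all above the LT-HSC libraries. Gata1 rose in MEP WT against LT-HSC WT by 3.52 log2 units (SE 0.51, adjusted p = 0.000149, edgeR). The step between CMP/GMP WT and LT-HSC WT was 1.80 (SE 0.46, adjusted p = 0.0274, edgeR), and that between MEP WT and CMP/GMP WT was 1.72 (SE 0.48, adjusted p = 0.0758, edgeR) and did not pass. The middle step was not called when any 1 of 5 libraries was left out (CMP/GMP WT 1, 2 or 4, LT-HSC WT 3 or 4), with adjusted p-values of 0.0543 to 0.0958.

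Klf1 (chr8:84901928-84905291, plus strand), the erythroid Krüppel-like factor, had 775, 118, 417 and 451 CPM in MEP Dnmt3a KO, against 569.9, 1369.7 and 874 CPM in MEP WT. In LT-HSC it had 9.33, 15.4, 114 and 57.4 CPM in Dnmt3a KO, against 0.188, 90.8, 93.4 and 14.2 CPM in WT. Stem cell libraries thus ranged from almost none to the level of CMP/GMP, which had 104 to 146 CPM in Dnmt3a KO, against 72.1 to 151 CPM in WT. The lowest, LT-HSC WT 1, rests on 4 reads (exact Poisson interval at 95%, 0.0512 to 0.481 CPM, counting error only). In MEP WT against LT-HSC WT Klf1 rose by 4.26 (SE 0.99, adjusted p = 0.0114, edgeR). Without the 3 libraries that stood apart the difference was 3.85 and still called.

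Gfi1b (chr2:28609450-28621982, minus strand), a repressor needed for both red cells and platelets, had 769, 122, 359 and 421 CPM in MEP Dnmt3a KO, against 439.7, 884 and 427 CPM in MEP WT. CMP/GMP libraries had 116 to 197 CPM in Dnmt3a KO, against 86.6 to 142 CPM in WT. LT-HSC libraries had 226, 59.0, 225 and 238 CPM in Dnmt3a KO, against 39.0, 127, 277 and 144 CPM in WT, so the stem cells overlapped or exceeded CMP/GMP. Gfi1b rose in MEP WT by 2.02 against LT-HSC WT (SE 0.53, adjusted p = 0.0244) and by 2.45 against CMP/GMP WT (SE 0.54, adjusted p = 0.0175, edgeR). Without MEP WT 3, the highest library, adjusted p was 0.157 and 0.134. The first call was also lost without LT-HSC WT 1, 2 or 4, and the second without CMP/GMP WT 1, 2 or 3 (adjusted p of at most 0.0651).

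Nfe2 (chr15:103248212-103258403, minus strand) encodes a bZIP subunit that acts at the globin locus and in platelet formation. It ran the other way, with 599.6, 235, 558 and 589 CPM in LT-HSC Dnmt3a KO, against 232, 439, 657 and 523 CPM in LT-HSC WT. CMP/GMP had 368, 351, 414 and 362 CPM in Dnmt3a KO, against 326, 283, 299 and 348 CPM in WT. MEP had 423, 114, 133 and 136 CPM in Dnmt3a KO, against 216, 422 and 205 CPM in WT. Within WT the populations overlapped and edgeR called no step, while limma-voom called Nfe2 lower in MEP and in CMP/GMP than in LT-HSC (adjusted p = 0.0141 and 0.0280). In Dnmt3a KO it was lower in MEP than in LT-HSC by a log2 fold change of -1.26 (SE 0.38, adjusted p = 0.0313, edgeR), which did not pass when MEP Dnmt3a KO 2, 3 or 4 or LT-HSC Dnmt3a KO 1, 3 or 4 was left out (adjusted p of 0.0669 to 0.109). Without the libraries that stood apart it was -1.30 and called.

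Zfpm1 (chr8:122282141-122337251, plus strand) had 9.51, 72.5, 234 and 234 CPM in MEP Dnmt3a KO, against 22.9, 9.71 and 14.5 CPM in MEP WT. It had 5.58 to 18.6 CPM in CMP/GMP Dnmt3a KO, against 3.43 to 20.4 CPM in CMP/GMP WT. LT-HSC libraries had 31.5, 83.7, 37.6 and 51.3 CPM in Dnmt3a KO, against 91.1, 26.8, 18.1 and 26.7 CPM in WT. The GATA1 cofactor was lowest in CMP/GMP and in MEP WT, which overlapped, and in WT showed no called step into MEP (log2 -1.36, SE 0.79, adjusted p = 0.301 against LT-HSC; 0.83, SE 0.76, adjusted p = 0.801 against CMP/GMP; edgeR).

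Among the receptors, Epor (chr9:21958897-21963506, minus strand) had 191, 297, 381 and 364 CPM in MEP Dnmt3a KO, against 188, 303 and 286 CPM in MEP WT. CMP/GMP had 27.3, 28.3, 40.7 and 51.3 CPM in Dnmt3a KO, against 24.8, 54.5, 18.7 and 62.2 CPM in WT, and LT-HSC had 24.4, 43.2, 42.7 and 58.8 CPM in Dnmt3a KO, against 10.04, 42.2, 25.7 and 32.6 CPM in WT. All 7 MEP libraries lay above all other sorted libraries, and CMP/GMP and LT-HSC overlapped. Epor rose in MEP WT by 3.25 against LT-HSC WT (SE 0.46, adjusted p = 0.000147, edgeR) and by 2.71 against CMP/GMP WT (SE 0.45, adjusted p = 0.00168, edgeR). In bulk cells, more erythroid cells in a population and more RNA per cell cannot be told apart.

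Tfrc (chr16:32608920-32632794, plus strand) had 215, 679, 887 and 796 CPM in MEP Dnmt3a KO, against 197, 204 and 230.1 CPM in MEP WT. CMP/GMP had 81.7 to 202 CPM in Dnmt3a KO, against 112 to 159.6 CPM in WT. LT-HSC had 19.9, 63.4, 66.5 and 17.3 CPM in Dnmt3a KO, against 427, 82.4, 34.7 and 47.3 CPM in WT. The 427 CPM of LT-HSC WT 1 stood above every MEP WT library. In WT the MEP step was not called against LT-HSC (log2 0.52, SE 0.63, adjusted p = 0.678, edgeR), and without the libraries that stood apart it was called. In Dnmt3a KO it rose by 3.98 in MEP against LT-HSC (SE 0.67, adjusted p = 0.000481, edgeR).

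The carbonic anhydrases Car1 (chr3:14766216-14808368, minus strand) and Car2 (chr3:14886273-14900770, plus strand), enzymes that hydrate carbon dioxide, lie 77904 bases apart. Car1 had 5167, 2463, 3629.8 and 3203 CPM in MEP Dnmt3a KO, against 6890.3, 8134 and 9036 CPM in MEP WT. CMP/GMP had 383, 365, 364 and 498 CPM in Dnmt3a KO, against 349, 921, 431 and 758 CPM in WT, and LT-HSC had 4.02, 37.9, 458 and 168 CPM in Dnmt3a KO, against 0.939, 838, 265 and 271 CPM in WT. Every MEP library was above all others, and within LT-HSC the values spanned from about 1 CPM in WT 1 (20 reads) to the CMP/GMP range. Car1 rose in MEP WT against LT-HSC WT by 4.56 (SE 1.11, adjusted p = 0.0156, edgeR). Against CMP/GMP WT the difference was 3.72 (SE 1.08) at adjusted p = 0.0928 (edgeR).

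Car2 did not share that order. It had 4557, 4204, 5052 and 4406 CPM in MEP Dnmt3a KO, against 3836, 4939 and 4967 CPM in MEP WT, and then 1575, 1362, 1956 and 2101 CPM in LT-HSC Dnmt3a KO, against 618, 1635, 2187 and 1971 CPM in LT-HSC WT. CMP/GMP was lowest, with 687, 813, 514 and 741 CPM in Dnmt3a KO, against 631, 957, 369.9 and 908 CPM in WT. Car2 rose in MEP WT by 1.54 against LT-HSC WT (SE 0.32, adjusted p = 0.00529) and by 2.70 against CMP/GMP WT (SE 0.33, adjusted p = 5.43e-05, edgeR). It fell in CMP/GMP against LT-HSC, with log2 fold changes of -1.33 in Dnmt3a KO (SE 0.31, adjusted p = 0.0271) and -1.15 in WT (SE 0.30, adjusted p = 0.0333, edgeR). The WT fall missed the threshold when any 1 CMP/GMP WT library or LT-HSC WT 2, 3 or 4 was left out (adjusted p of 0.0507 to 0.112), and the KO fall without CMP/GMP Dnmt3a KO 1, 3 or 4 or LT-HSC Dnmt3a KO 3 or 4 (0.0645 to 0.0887).

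Ermap (chr4:119175457-119190011, minus strand), an erythroid membrane protein that carries the Scianna blood group in humans, had 235, 367, 775 and 764 CPM in MEP Dnmt3a KO, against 416, 439 and 623 CPM in MEP WT. It had 9.08 to 46.6 CPM in CMP/GMP Dnmt3a KO, against 13.1 to 81.0 CPM in CMP/GMP WT. LT-HSC had 1.34, 36.5, 11.7 and 20.1 CPM in Dnmt3a KO, against 0, 56.5, 51.0 and 34.7 CPM in WT, where the count of 0 in LT-HSC WT 1 allows up to 0.141 CPM (taken as 3 counts). MEP libraries were again above all other sorted libraries, with a rise of 3.82 in WT against LT-HSC (SE 1.04, adjusted p = 0.0286, edgeR). That rise missed the threshold without MEP WT 3 or 4 or LT-HSC WT 3 or 4 (adjusted p of 0.0544 to 0.0888).

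**Figure D2:**
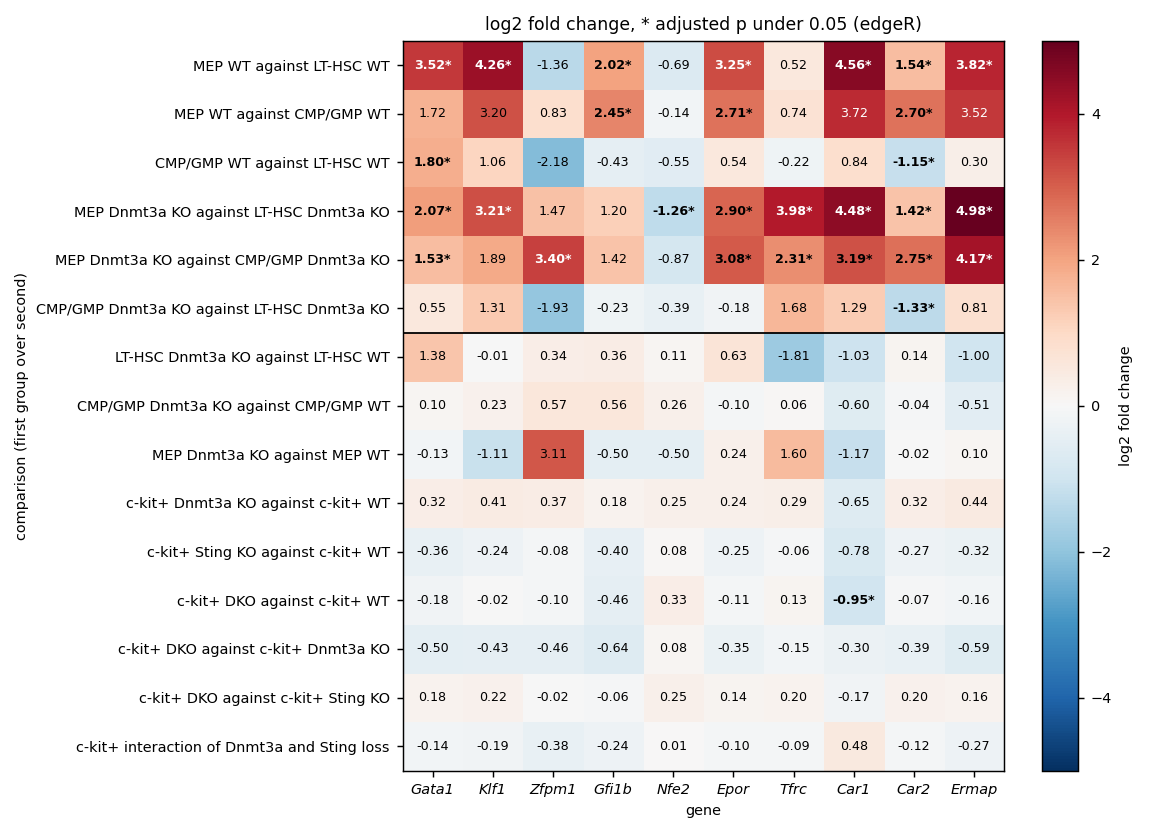
Log2 fold change of each gene (columns) in each comparison (rows, first group over second); red is higher in the first group, blue lower, and an asterisk marks an adjusted p under 0.05 (edgeR). The upper 6 rows compare populations and hold 28 of the 29 marks; the lower rows compare genotypes and hold 1, Car1 in c-kit+ DKO against WT at -0.95.

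Counted over the members, 7 of 10 were called higher in MEP WT than in LT-HSC WT, where 2.58% of all 16136 genes tested were called higher. These were Gata1, Klf1, Gfi1b, Epor, Car1, Car2 and Ermap. The median log2 fold change of the 10 was 2.64, against -0.19 over all genes. In MEP WT against CMP/GMP WT 3 were called higher, Gfi1b, Epor and Car2 (0.552% of all genes), with a median of 2.57 against -0.04 over all genes. This count was 7 without LT-HSC WT 1, which is not in the contrast but shares its estimate of spread, and the 4 added were Gata1, Klf1, Car1 and Ermap. The share of all genes called in that refit is not given here. In CMP/GMP WT against LT-HSC WT Gata1 was called higher and Car2 lower (3.56% of all genes called), with a median of 0.04 against -0.11.

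In the knockout, MEP against LT-HSC gave 8 called members, with Gata1, Klf1, Epor, Tfrc, Car1, Car2 and Ermap higher (5.74% of all genes called higher) and Nfe2 lower (7.23% called lower). MEP Dnmt3a KO against CMP/GMP Dnmt3a KO gave 7 higher, Gata1, Zfpm1, Epor, Tfrc, Car1, Car2 and Ermap (5.49% of all genes called higher). There Zfpm1 rose by 3.40 (SE 0.77, adjusted p = 0.00923), Ermap by 4.17 (SE 1.03, adjusted p = 0.0142) and Tfrc by 2.31 (SE 0.62, adjusted p = 0.0212, edgeR). For Zfpm1 the groups overlapped, with 9.51 CPM in MEP Dnmt3a KO 1 and 5.58 to 18.6 CPM in CMP/GMP Dnmt3a KO. Its rise thus rests on MEP Dnmt3a KO 2, 3 and 4. The Car1 call (log2 3.19, SE 1.02, adjusted p = 0.0473, edgeR) was lost in 17 of 31 alternatives. The count of members was 3, Car2, Epor and Zfpm1, without CMP/GMP Dnmt3a KO 1. It was 4, those and Ermap, without CMP/GMP Dnmt3a KO 3 or 4 or MEP Dnmt3a KO 3 or 4, and 9 without the libraries that stood apart. The shares of all genes called in these refits are not given here, so the counts are not set against them. CMP/GMP Dnmt3a KO against LT-HSC Dnmt3a KO gave 1 called member, Car2 (1.67% of all genes called).

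Per kilobase of exon (GENCODE M21), Car1 was the most abundant of the 10 in MEP WT at 6426 ± 863 CPM per kb (SD, n = 3), followed by Car2 at 1891 ± 266, Klf1 at 613 ± 264 and Gfi1b at 319 ± 142 CPM per kb. Gata1 at 167 ± 22.6 and Epor at 130 ± 31.2 CPM per kb came next and did not separate beyond their spread. Nfe2 (94.1 ± 41.0) and Ermap (93.1 ± 21.4 CPM per kb) were level, and Tfrc (34.0 ± 2.79) and Zfpm1 (4.48 ± 1.90 CPM per kb) were lowest. In LT-HSC WT the order on the same scale was led by Car2 at 662 ± 287 CPM per kb, Car1 at 276 ± 283 and Nfe2 at 155 ± 59.7 CPM per kb (SD, n = 4). The SD of Car1 in LT-HSC WT was as large as its mean, so that its place against Nfe2 is not set. In LT-HSC Dnmt3a KO Nfe2, at 166 ± 58.4 CPM per kb, stood above Car1 at 134 ± 165 CPM per kb (SD, n = 4).

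Other genes of the erythroid programme were read from lists of the same lineage. Of 16 red cell membrane and blood group genes tested in MEP WT against LT-HSC WT, 4 were called higher and none lower (median log2 fold change 3.27, against -0.19 over all genes). Ank1, the ankyrin of the red cell skeleton, rose by 4.59 (SE 1.38, adjusted p = 0.0486), Rhd of the Rhesus complex by 4.44 (SE 1.30, adjusted p = 0.0418) and the adducin gene Add2 by 4.22 (SE 1.18, adjusted p = 0.0334, edgeR). Of 14 globin and haem synthesis genes 5 were called higher (median 1.64), among them Blvrb, a biliverdin reductase (3.69, SE 0.53), and the haem enzyme Alad (2.83, SE 0.36), both at an adjusted p of at most 0.000150 (edgeR). Erythroid transcription factors other than the members were split, with 2 of 20 called higher (E2f4 at 1.50, Ikzf1 at 1.11) and 2 lower (Sox6 at -1.70, Lmo2 at -1.42).

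Genes downstream of the erythropoietin receptor did not follow Epor. Of 16 in MEP WT against LT-HSC WT none was called higher and 4 were called lower, among them the feedback inhibitors Socs3 (3.47 ± 2.56 CPM in MEP WT and 178 ± 80.2 CPM in LT-HSC WT), Socs2 (2.96 ± 1.44 and 110 ± 57.1 CPM in the same order) and Cish (17.7 ± 12.4 and 272 ± 141 CPM; SD, n = 3 and 4). Of 16 iron genes 2 were called higher, Slc11a2, an iron transporter (log2 3.03, SE 0.56), and Steap3, a ferrireductase of the transferrin cycle (2.87, SE 0.73). The iron regulator Hfe was called lower, with no read in the MEP WT libraries, which allows at most 0.103 CPM in any of them (3 counts), and 8.60 ± 6.72 CPM in LT-HSC WT. Among 9 factors of opposing lineages Spi1, the myeloid factor PU.1, fell by 2.20 and Fli1, a megakaryocytic factor, fell by 1.96 on the log2 scale. Stem cell markers summed to 192 to 228 CPM in MEP WT and 1250 to 1768 CPM in LT-HSC WT, with 8 of 12 called lower and none higher. LT-HSC WT 1 also stood above the other LT-HSC WT libraries in sums of some lineage markers. It had granulocytic markers at 3310 CPM (342 to 443 CPM in the other LT-HSC WT libraries), monocytic markers at 827 CPM (36.7 to 51.2 CPM) and megakaryocytic markers at 3473 CPM (1193 to 1743 CPM). This library had the highest Tfrc and Zfpm1 of the LT-HSC WT libraries and the lowest level of every other member. Without it 7 members were again called higher in MEP WT, with Tfrc in place of Gfi1b. For that refit, too, the share of all genes called is not given here.

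Against CMP/GMP WT, MEP WT had 4 of 14 globin and haem genes higher, among them Blvrb (3.42) and Hemgn (1.78), and 3 of 20 erythroid transcription factors, Zbtb7a (2.06), Lmo2 (1.67) and E2f4 (1.48). No red cell membrane gene was called in that comparison, though the median of the 16 tested was 2.68 against -0.04 over all genes. In MEP Dnmt3a KO against CMP/GMP Dnmt3a KO 14 of the 20 factors were called higher and 1 lower. The highest were Klf3 (4.61, SE 0.96), Tal1, a partner in the GATA1 complex (3.65, SE 0.64), and its bridging protein Ldb1 (3.09, SE 0.63; adjusted p of at most 0.00529, edgeR). Summed over the 20 factors, MEP Dnmt3a KO 1 had 2334 CPM, within the 2069 to 2506 CPM of the CMP/GMP Dnmt3a KO libraries. MEP Dnmt3a KO 2, 3 and 4 had 4563, 5924 and 6384 CPM. Whether WT and KO differ in these counts of called genes was tested only through the Dnmt3a effect below.

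**Figure D3:**
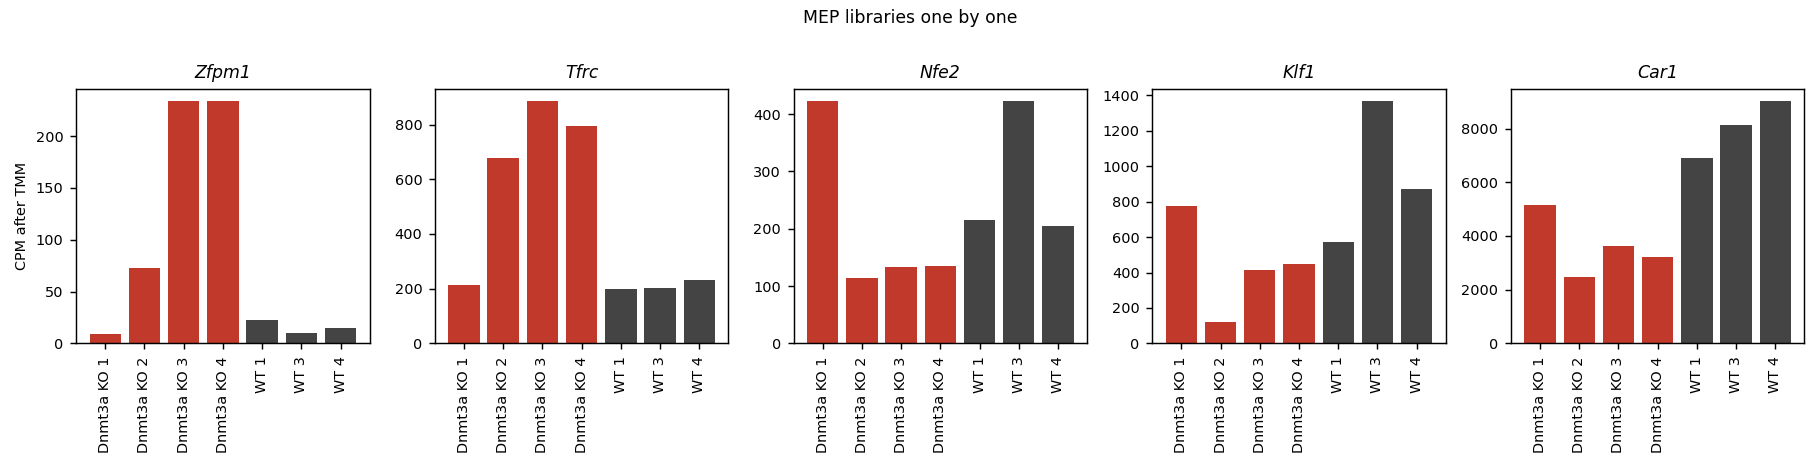
CPM after TMM of Zfpm1, Tfrc, Nfe2, Klf1 and Car1 in each MEP library; the 4 Dnmt3a KO bars stand left of the 3 WT bars. Dnmt3a KO 2, 3 and 4 are high for Zfpm1 (72.5 to 234 CPM) and Tfrc (679 to 887 CPM) and low for Nfe2 (114 to 136 CPM), while Dnmt3a KO 1 lies near WT for these genes.

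Loss of Dnmt3a was then compared with WT within MEP. The largest difference among the members was in Zfpm1, with 137 ± 114 CPM in Dnmt3a KO (SD, n = 4) and 15.7 ± 6.65 CPM in WT (n = 3; log2 fold change 3.11, SE 0.95, adjusted p = 0.315, edgeR). Dnmt3a KO 2, 3 and 4 lay above every WT library and Dnmt3a KO 1, at 9.51 CPM, lay below them all. The libraries split the same way in the number of genes at 1 CPM or more, 9986 to 10213 in Dnmt3a KO 2, 3 and 4, against 11326 in Dnmt3a KO 1 and 11280 to 11665 in WT. The part of this in the Zfpm1 and Tfrc differences was not tested. Tfrc averaged 644 ± 298 CPM in Dnmt3a KO, against 211 ± 17.2 CPM in WT (a log2 fold change of 1.60, SE 0.46, adjusted p = 0.315, edgeR), again with Dnmt3a KO 1 at the WT level. Car1 was the only member whose groups did not overlap, at 3616 ± 1141 CPM in Dnmt3a KO, against 8020.2 ± 1078 CPM in WT (a log2 fold change of -1.17, SE 0.31, adjusted p = 0.315, edgeR), where 12.8% of the 12323 genes tested had groups that did not overlap. Car2, its neighbour, had 4555 ± 362 and 4581 ± 645 CPM in the same order.

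None of the 10 members was called in MEP by edgeR, and 0% of all genes were, with 1607 genes and 3 members at an unadjusted p under 0.05. DESeq2 called Car1, Tfrc and Zfpm1 (664 genes in all). Without MEP Dnmt3a KO 1 edgeR called 4 members, Zfpm1 higher (log2 3.50, adjusted p = 0.00673), Tfrc higher (1.89, adjusted p = 0.00334), Car1 lower (-1.39, adjusted p = 0.00670) and Nfe2 lower (-1.15, adjusted p = 0.0368), among 2882 genes. The Dnmt3a KO libraries in that fit were the closely alike pair 3 and 4 and the shallow Dnmt3a KO 2. Leaving out any other single MEP library, or summing Dnmt3a KO 3 and 4, gave 0 called members. Without the pair Dnmt3a KO 3 and 4, Zfpm1 was at 1.37 and Tfrc at 1.08 (adjusted p = 0.738 and 0.715, edgeR). Klf1 was at -1.11 (SE 0.54), Gfi1b and Nfe2 at -0.50 each, Epor at 0.24, Gata1 at -0.13, Ermap at 0.10 and Car2 at -0.02, with none called by edgeR. Limma-voom called 7 members, Car1, Klf1 and Nfe2 lower and Zfpm1, Tfrc, Epor and Ermap higher, among 7800 genes.

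Sums of lineage markers differed between these libraries. Megakaryocytic markers (14 genes) summed to 417 to 799 CPM in MEP Dnmt3a KO, against 160 to 283 CPM in MEP WT, with no gene called. Granulocytic markers (12 genes counted) summed to 1308, 2981, 70.8 and 81.4 CPM in Dnmt3a KO, against 531, 337 and 75.6 CPM in WT, and monocytic markers (8 genes) were highest in the shallow Dnmt3a KO 2 at 386 CPM. Red cell membrane genes summed to 994 to 2317 CPM in Dnmt3a KO, against 2282 to 2822 CPM in WT, with a median log2 fold change of -0.43 over 15 genes and none called. Globin and haem genes had a median of -0.48 and the 20 erythroid transcription factors one of 0.75, against -0.03 over all genes, and none of either was called. By Xist, Dnmt3a KO 3 and 4 and WT 3 and 4 were from females and the other MEP libraries from males. With a term for sex Zfpm1 was at 2.75, Tfrc at 1.62 and Car1 at -1.16 (each at adjusted p = 0.284, edgeR). The part of the marker signals and of depth in the member differences was not tested.

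In LT-HSC and CMP/GMP no member was called between Dnmt3a KO and WT, as for all genes (0% of 12800 and of 13205 by edgeR). At an unadjusted p under 0.05 there were 2 members of 151 genes in LT-HSC and 1 of 1196 in CMP/GMP, and DESeq2 called 0 members in each. In LT-HSC Gata1 averaged 91.8 ± 32.6 CPM in Dnmt3a KO, against 35.9 ± 24.6 CPM in WT (log2 1.38, SE 0.61), and Tfrc 41.8 ± 26.8 and 148 ± 187 CPM in the same order (log2 -1.81, SE 0.79), both with adjusted p = 1 and groups that overlap. The Tfrc mean of WT rests on the 427 CPM of LT-HSC WT 1. Klf1, Car1 and Ermap had standard errors of 1.17 to 1.33 there, larger than their differences of -0.01, -1.03 and -0.995. In CMP/GMP the largest differences were Car1 at -0.60 (SE 0.27), Zfpm1 at 0.57 (SE 0.59) and Gfi1b at 0.56 (SE 0.21; adjusted p of at least 0.473, edgeR). Granulocytic markers summed to 9055 to 22548 CPM in CMP/GMP Dnmt3a KO, against 6340 to 32184 CPM in WT. Elane among them had 2175, 275, 2403 and 3302 CPM in Dnmt3a KO, against 279, 219, 5460 and 187 CPM in WT. CMP/GMP WT 3, the 5460 CPM library, was lowest of its group for Gata1, Gfi1b, Zfpm1, Epor and Car2, but not for the other members. The part of the cell mix in these differences, and in those from MEP, was not tested.

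An edgeR F-test of whether the Dnmt3a effect differed among LT-HSC, CMP/GMP and MEP called no member (0.0186% of 16136 genes called). At an unadjusted p under 0.05 it had 2 members of 1929 genes. Voom called 3 members among 4106 genes. Tfrc came nearest, at an unadjusted p of 0.00313 and adjusted p = 0.377, with log2 fold changes of 1.60 in MEP, 0.06 in CMP/GMP and -1.81 in LT-HSC. Without MEP Dnmt3a KO 1 Tfrc was called. Zfpm1 was at an unadjusted p of 0.0305 (adjusted p = 0.383, edgeR).

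**Figure D4:**
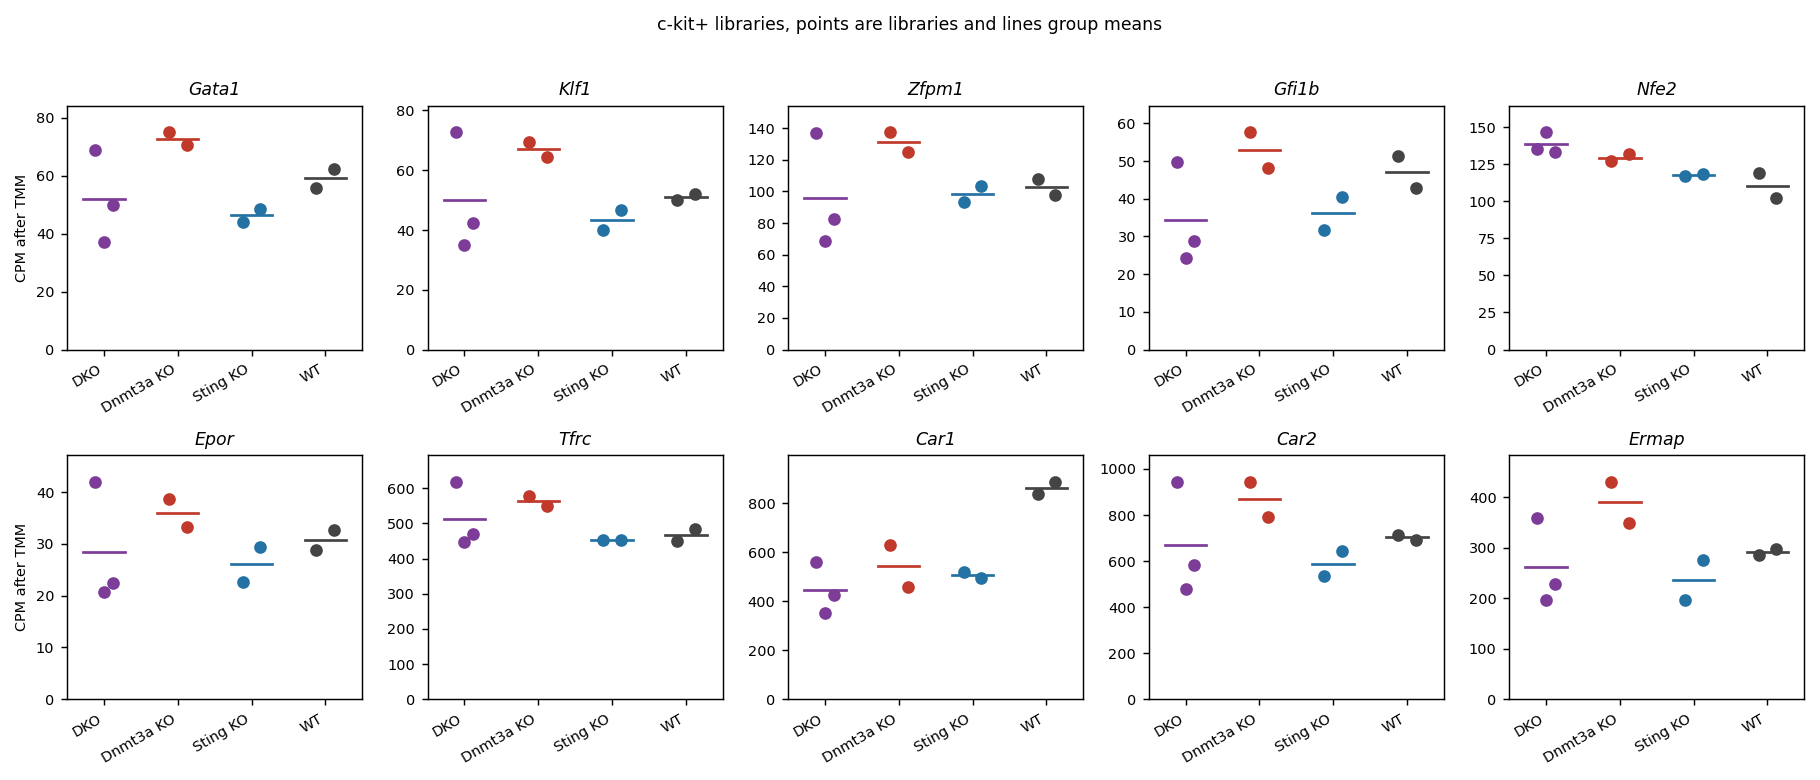
CPM after TMM of the 10 genes in the 9 c-kit+ libraries; points are libraries, lines group means, and axes start at 0. Car1 lies between 351 and 631 CPM in the 7 mutant libraries, below the 839.9 and 889 CPM of WT, and DKO 1 is the highest DKO library for every gene but Nfe2.

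The c-kit+ comparison asked what loss of Dnmt3a, of Sting and of both does in the mixed progenitor fraction. Car1 had 561, 351 and 427 CPM in DKO, 631 and 459.6 CPM in Dnmt3a KO, 518 and 496 CPM in Sting KO, against 839.9 and 889 CPM in WT. All 7 mutant libraries were below both WT libraries. Car1 fell in DKO against WT by a log2 fold change of -0.95 (SE 0.17, adjusted p = 0.0355, edgeR), and was at -0.65 in Dnmt3a KO (SE 0.19, adjusted p = 0.158) and -0.78 in Sting KO (SE 0.19, adjusted p = 0.122, edgeR). These comparisons share the 2 WT libraries. The DKO call was lost without WT 1 (adjusted p = 0.193), WT 2 (0.203), Sting KO 1 (0.0538) or Sting KO 2 (0.0539), and when only DKO and WT were fitted (0.0852). The Sting KO difference was called without DKO 1 (adjusted p = 0.0442) or DKO 2 (0.0335).

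Car1 was 1 called member of 10 in DKO against WT, where 1.26% of 16026 genes were called. No member was called in Dnmt3a KO (0.568% of genes called) or Sting KO against WT (0.774%), with 2611 and 1845 genes at an unadjusted p under 0.05 (2 members and 1 member). DESeq2 called Car1 in each, among 618 and 447 genes. In Dnmt3a KO 8 members lay above both WT libraries and Car1 below, but 53.5% of all genes had groups that did not overlap in this comparison of 2 with 2. They ranged from Epor at 0.24 (38.7 and 33.2 CPM in Dnmt3a KO, against 28.9 and 32.6 CPM in WT) to Ermap at 0.44 (431 and 349 CPM in Dnmt3a KO, against 286 and 296 CPM in WT). In Sting KO 6 members lay below both WT libraries, as did 3305 of 16026 genes (45.2% did not overlap in either direction). Gata1 among the 6 had 44.1 and 48.6 CPM in Sting KO, against 55.9 and 62.2 CPM in WT. In DKO Nfe2 lay above WT, with 135, 147 and 133 CPM (log2 0.33, SE 0.09, adjusted p = 0.117, edgeR), and Car1 below (32.1% of all genes did not overlap in either direction).

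The 3 DKO libraries were not alike. DKO 1 had 68.7 CPM of Gata1, 72.8 CPM of Klf1, 137 CPM of Zfpm1 and 358 CPM of Ermap, close to the Dnmt3a KO libraries (75.1 and 70.4, 69.4 and 64.5, 138 and 125, and 431 and 349 CPM). DKO 2 and 3 had 37.0 and 49.8 CPM of Gata1, 35.0 and 42.4 CPM of Klf1, 69.0 and 82.3 CPM of Zfpm1 and 196 and 228 CPM of Ermap, near or below the Sting KO libraries (44.1 and 48.6, 40.1 and 46.8, 93.2 and 104, and 196 and 275 CPM). DKO 1 and both Dnmt3a KO libraries were from females by Xist, and DKO 2 and 3, Sting KO and WT from males by transcripts of the Y chromosome, so that Dnmt3a KO and WT differ in sex throughout and a term for sex rests on the DKO libraries. With that term the Car1 difference was -1.15 in DKO (adjusted p = 0.0165, edgeR) and -1.18 in Dnmt3a KO (adjusted p = 0.338, edgeR), where 0 genes were called, against 91 without it.

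DKO against Dnmt3a KO called no member by edgeR (0.156% of genes called) or DESeq2, and 3 members of 1268 genes were at an unadjusted p under 0.05, with Gfi1b at -0.64 (SE 0.26), Ermap at -0.59 (SE 0.23) and Gata1 at -0.50 (SE 0.20). Without DKO 1 Gfi1b, Klf1 and Zfpm1 were called lower, in a fit to which the 0.156% does not apply. The share of all genes called in that fit is not given here, so these calls are not set against it. DKO 1 was the only DKO library from a female, so that fit compares male DKO with female Dnmt3a KO libraries. DKO against Sting KO called none (0% of genes; 1854 genes and 1 member at an unadjusted p under 0.05; 0 members by DESeq2), with differences of -0.17 (Car1) to 0.25 (Nfe2). The interaction, which asks whether loss of both differs from the sum of the single losses, called none of the members (0.150% of genes called; 1211 genes and 0 members at an unadjusted p under 0.05; 0 members by DESeq2). Its value for Car1 was 0.48 (SE 0.26, adjusted p = 0.751, edgeR).

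Marrow macrophage markers, like Car1, summed lower in every mutant library than in both WT libraries. Their 11 genes summed to 535 to 788 CPM in DKO, 810 to 830 CPM in Dnmt3a KO, 501 to 517 CPM in Sting KO, against 1974 to 2060 CPM in WT, with 10, 4 and 6 called lower and none higher in the 3 mutants. In the iron list the fallers were genes that macrophages also use to recycle iron. Slc40a1, the iron exporter ferroportin, which is also in the macrophage list, fell by 1.09 in DKO, 0.85 in Dnmt3a KO and 1.59 in Sting KO. The ferritin light chain Ftl1 fell by 0.50 in DKO and 0.68 in Dnmt3a KO, and the heavy chain Fth1 by 0.39 in DKO. No gene of the red cell membrane, globin and haem, erythroid transcription factor or erythropoietin signalling lists was called in any mutant against WT. Basophil, mast cell and eosinophil genes (10) also summed lower, at 2515 to 3392 CPM in DKO, 1571 to 2091 CPM in Dnmt3a KO, 1954 to 2356 CPM in Sting KO, against 4201 to 4691 CPM in WT. Granulocytic genes (12) summed higher, at 26648 to 51549 CPM in DKO, 30082 to 30519 CPM in Dnmt3a KO, 28462 to 31751 CPM in Sting KO, against 19939 to 23298 CPM in WT. The part of these signals in the Car1 difference was not tested.

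**Figure D5:**
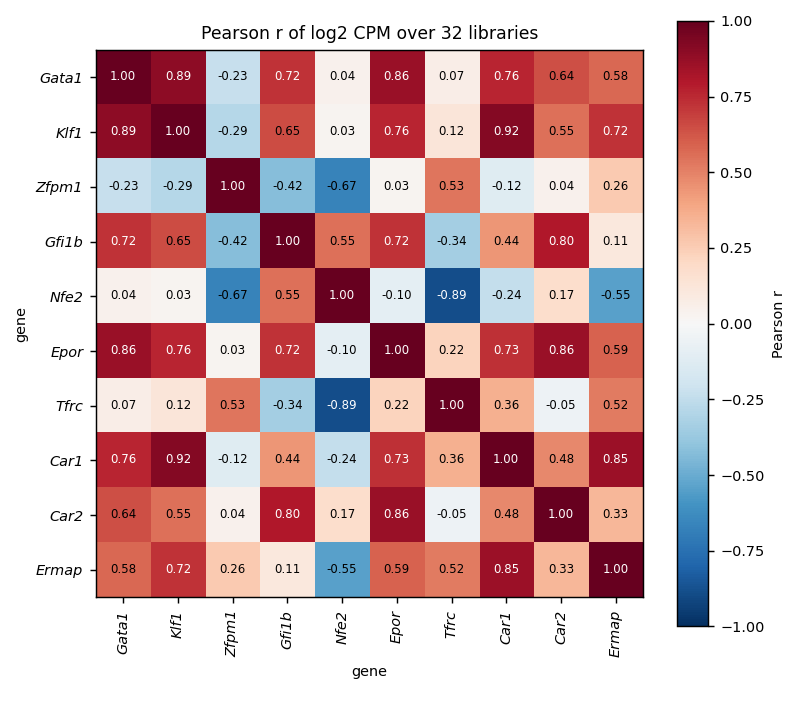
Pearson r of log2 CPM between the 10 genes over 32 libraries; red is positive and blue negative. Klf1 and Car1 (0.92), Gata1 and Klf1 (0.89) and Epor and Gata1 (0.86) run together, and Nfe2 and Tfrc (-0.89) run opposite.

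Over the 32 libraries, Klf1 tracked Car1 (Pearson r of log2 CPM 0.917) and Gata1 (0.893), Epor tracked Car2 (0.864) and Gata1 (0.860), and Car1 tracked Ermap (0.852). Nfe2 ran against Tfrc (-0.890) and Zfpm1 (-0.671), while Zfpm1 and its partner Gata1 were nearly unrelated (-0.234). These values describe the libraries, which share their population and preparation.

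Among all other genes, those most like Car1 across the 32 libraries were Cldn13 (r = 0.964), Atp1b2 (0.963) and Sphk1 (0.962), and those most like Klf1 were Apeh (0.910), Ddx28 (0.902) and Smim1 (0.883). Gata1 was closest to Mrpl37 (0.886), Mrto4 (0.884) and Dap3 (0.859). Epor and Car2 shared Gstm5 (0.878 and 0.885) and Aqp9 (0.875 and 0.890), beside Mt2 for Epor (0.914) and Acss2 for Car2 (0.922). Gfi1b was closest to Urod, a haem enzyme (0.925), Prdx6 (0.906) and Creg1 (0.891), and Ermap to Atp7b (0.924), Atp1b2 (0.904) and Aco1 (0.877). Nfe2 was closest to Rab37 (0.954), the platelet receptor gene Gp9 (0.949) and Krt18 (0.940). Tfrc had Srp72 (0.914), Ankrd12 (0.904) and Ddx21 (0.897), and Zfpm1 had Aes (0.947), Kat2b (0.937) and Hdac2 (0.936).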

How the data were processed

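The authors deposited raw read counts per gene symbol, with no normalisation. Libraries were made from polyA RNA by a SMART-Seq2 variant with full-length amplification, per the labels' protocols. The submitters' processing notes list Trim Galore 0.6.7, HISAT2, featureCounts 2.0.1, DESeq2 1.34.0 and the build mm10, without their order. No annotation, strand setting or rule for reads with several positions is stated in the sources used here, so reads of genes that overlap, or that lie antisense to each other, cannot be told apart. Of 40 gene columns 32 matched a library; the other 8 were not used, since 4 names of short-term stem cell WT libraries stand over 2 columns each.

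Counts were tested in R 4.3.3 with edgeR 4.0.16 (quasi-likelihood test, TMM, filterByExpr with a minimum count of 10 and a total of 15) over all genes, with Benjamini-Hochberg adjustment, and a call means an adjusted p under 0.05. Dnmt3a KO and WT were fitted within each sorted population, the 23 sorted libraries together for comparisons of populations, and the 9 c-kit+ libraries together. Standard errors are those of log2 fold changes, and intervals cover counting error only. The fits were tested on simulated data. Alternatives were DESeq2 1.42.0, limma-voom (limma 3.58.1), RLE size factors, no filter, blocking on the replicate number, fitting just the compared groups, and leaving out each library. Fits without the libraries that stood apart, with MEP Dnmt3a KO 3 and 4 summed or left out, with a term for sex and with a crossed block were chosen after seeing the data. Members and lists were chosen with earlier results of these data known. From each list up to 3 called genes with the largest fold change are named. Ikzf1 completes a count and was chosen after its values were seen. One called gene of the globin and haem list is not reported here. Genes of like pattern are the 3 with the highest r to each member among those averaging 5 CPM or more, predicted genes left out. Promoters are RefSeq windows of 300 bases, and gene positions and exon lengths come from GENCODE M21.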

Additional observations from a re-analysis of the deposited data

Results flagged for a closer look

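In groups of 4 libraries, the highest or lowest value of each member was tested for a gap to the nearest other library that is large for the range of the group (Dixon's test at 95%). Of 50 gene and group pairs 6 were picked out, and chance picks out about 1 in 20 groups. LT-HSC WT 1 was far above the other LT-HSC WT libraries in Zfpm1 (91.1 CPM) and Tfrc (427 CPM). LT-HSC Dnmt3a KO 2 was far below its group in Gfi1b (59.0 CPM) and Nfe2 (235 CPM). MEP Dnmt3a KO 1 was far above the other MEP Dnmt3a KO libraries in Nfe2 (423 CPM). CMP/GMP Dnmt3a KO 4 was above its group in Car1 (498 CPM). The first 2 libraries are among the 3 that stood apart over all genes.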

How the results depend on the processing

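Of 29 called member values, 14 kept the call under every alternative run, and of 884 such recomputations 804 kept it, 80 lost it and 0 reversed. Counts of called members changed as follows, with the number of all genes called in parentheses for changes of method. In MEP Dnmt3a KO against WT they were 3 by DESeq2 (664 genes) and 7 by voom (7800 of 12323 genes), and 0 to 4 when a library was left out. In c-kit+ Dnmt3a KO against WT they were 1 by DESeq2 (618 genes), 2 with no filter (1219), 1 by voom (924) and 6 with only the groups compared (1260). In Sting KO against WT they were 1 by DESeq2 (447 genes), with no filter (735), with only the groups compared (286) and with a term for sex (131). With a library left out they were 0 to 1. In DKO against WT they were 2 by DESeq2 (914 genes), 3 with no filter (1359), 0 with only the groups compared (69) and 0 to 1 with a library left out. In DKO against Dnmt3a KO they were 5 with no filter (415 genes) and 0 to 3 with a library left out. In MEP WT against LT-HSC WT they were 9 by voom (2998 genes), 4 with only the groups compared (1029) and 5 to 7 with a library left out. In MEP WT against CMP/GMP WT they were 7 by DESeq2 (1198 genes), with no filter (339) and without the libraries that stood apart. They were 8 by voom (3825) and with only the groups compared (1571), and 2 to 7 with a library left out. In CMP/GMP WT against LT-HSC WT they were 3 by DESeq2 (1999 genes), 4 by voom (3911), 0 with only the groups compared (1061) and 1 with a term for sex (594). With a library left out they were 0 to 3. In MEP Dnmt3a KO they were 10 by voom in each comparison, where voom called 8459 (against LT-HSC) and 10116 (against CMP/GMP) of 16136 genes. Against LT-HSC they were 6 with only the groups compared (425). Against CMP/GMP they were 8 by DESeq2 (3744), with no filter (1716) and with only the groups compared (1003). The ranges with a library left out were 6 to 9 against LT-HSC and 3 to 9 against CMP/GMP. In CMP/GMP Dnmt3a KO against LT-HSC they were 2 by DESeq2 (1711 genes), by voom (1666) and without the libraries that stood apart, and 0 to 2 with a library left out. The difference of the Dnmt3a effect called 3 by voom (4106 genes) and 0 to 1 with a library left out. The cause was not tested, except that fewer libraries or genes enter some fits.

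Replicate numbers were not taken to pair the libraries, since with 3 or more shared numbers no comparison had every correlation of deviations over 0.1. Between CMP/GMP WT and LT-HSC WT these were 0.0491 to 0.186, and between MEP and LT-HSC in Dnmt3a KO 0.373, 0.22, -0.103 and 0.00788. By sex transcripts Dnmt3a KO 1 and 2 were male and 3 and 4 female in each sorted population. WT 4 was male in CMP/GMP and female in LT-HSC and MEP. Whether a number stands for a shared animal was not tested. With the replicate number as a block 5 members were called in MEP WT against CMP/GMP WT (244 genes in all) and 3 in CMP/GMP WT against LT-HSC WT (643). Within Dnmt3a KO the block called 8 in MEP against CMP/GMP (1966) and 2 in CMP/GMP against LT-HSC (369). It called 0, 0 and 0 in Dnmt3a KO against WT in LT-HSC, CMP/GMP and MEP. In c-kit+ Dnmt3a KO against WT the correlation was -0.114, and the crossed block called 0 members. Values near 0 reads, such as Klf1, Car1 and Ermap in LT-HSC WT 1, are limited by depth, and the low depth of MEP Dnmt3a KO 2 limits its precision.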
